A study of Homo sapiens with 12 samples.

Results

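The RAS-RAF-MEK-ERK cascade is represented here by 7 genes that were selected by name, namely the RAS genes NRAS and HRAS, the RAF genes ARAF and BRAF, the MEK genes MAP2K1 and MAP2K2, and the ERK gene MAPK3. They are 7 of the 58347 genes in the deposited counts, and all 7 passed the filter on low counts that left 16740 genes for testing. The cells were A375, a human melanoma line in long use that carries a BRAF mutation, and their RNA was sequenced after 8 h in the dimethyl sulfoxide (DMSO) vehicle, tretinoin, vemurafenib, or vemurafenib plus tretinoin (the combination). Each of the 4 groups held 3 replicates, and all 12 samples, the vehicle included, are labelled with a dose of 5 µM. The cells are 1 line from 1 supplier, grown in the same serum-containing medium, and no group has an engineered allele. The labels state only that treatments were applied in triplicate, so the p-values below measure the spread between these samples.

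RAS proteins are small GTPases at the membrane that switch on when an exchange factor loads them with GTP. Active RAS recruits RAF kinases, which phosphorylate the MEK kinases, and MEK in turn phosphorylates ERK, which acts on cytoplasmic targets and on transcription factors. In many melanomas a mutant BRAF drives this chain without input from RAS, and vemurafenib blocks that mutant kinase. Tretinoin is all-trans retinoic acid, a ligand of the nuclear retinoic acid receptors. The questions asked of the cascade genes were whether their own transcripts differed between treatments and whether the paralogs within a tier moved alike.

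The total count per sample ran from 13510235 (tretinoin replicate 1) to 21534377 (combination replicate 3). Library scaling factors from edgeR's TMM method lay between 0.901 and 1.01 in the 6 samples without vemurafenib and between 1.03 and 1.07 in the 6 samples with it. Of the markers for melanocytic cells, MITF had 12.9 to 35.0 CPM (a count scaled by the library total) and S100B 6.22 to 10.9, whereas TYR stayed at or below 0.05 and SOX10 was listed at 0 in all 12 samples. SOX10 shares 89 of its 3710 exon bases (2.4%) with POLR2F, and whether that 0 reflects the cells or the counting was not tested. The neural crest and dedifferentiation markers were uneven, with VIM at 761 to 1020 CPM, AXL at 301 to 484, NGFR at 20.8 to 42.6 and SOX9 at 0.32 to 1.41. The summed level of the 9 melanocytic markers, most of it MITF and S100B, was 25.5 to 30.7 CPM without vemurafenib and 43.9 to 51.7 with it. The highest of the other markers, S100A1, had 1.76 to 4.07 CPM. The part of this sum in the results below was not tested. The 4 epithelial markers summed to 54.6 to 79.6 CPM, of which KRT8 made up 51.0 to 77.1, and the 3 blood markers to 0.8 to 4.9.

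The cascade genes differed widely in level when compared per kilobase of exon. In DMSO, HRAS (38.7 ± 4.76 RPKM, SD, n = 3) and MAP2K2 (35.6 ± 0.92) had the highest levels, and their replicates overlapped. ARAF (24.2 ± 0.79) and NRAS (23.6 ± 1.96) came next and also overlapped each other, followed by MAP2K1 (19.9 ± 0.59) and MAPK3 (10.1 ± 0.34). BRAF was lowest, at 0.74 ± 0.01 RPKM. Its annotated exons span 23432 bases over 21 transcripts, against 1854 to 5236 bases for the other genes. Its per-length level therefore depends on how much of that span the cells transcribe. The other lengths are also unions over annotated transcripts (11 for HRAS and for MAP2K2, 15 for MAPK3). That of MAP2K1 includes the 11.5% of its exon bases shared with opposite-strand genes, where fragments were counted for neither. The order of the levels thus depends on these lengths as well. In raw counts the 7 genes held between 253 (BRAF, DMSO replicate 2) and 4563 fragments (MAP2K2, combination replicate 3).

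Of the cascade genes, MAP2K1 was lower and MAPK3 higher wherever samples with and without vemurafenib were compared. Each comparison was tested with edgeR's quasi-likelihood method, with P values adjusted over all 16740 genes and a threshold of 0.05, and the number of cascade genes that passed was close to the share of all genes that did so. With vemurafenib against vehicle, 4 of the 7 genes changed (BRAF and MAPK3 up, HRAS and MAP2K1 down), where 52.6% of all tested genes passed. The same 4 genes changed in the same directions with the combination against vehicle, a comparison that shares the DMSO samples, where 53.6% of all genes passed. With the combination against tretinoin, 3 genes changed (MAP2K2 and MAPK3 up, MAP2K1 down), against 49.1% of all genes. The averaged vemurafenib effect, which is the mean of its effects with and without tretinoin, changed 4 genes (MAP2K2 and MAPK3 up, HRAS and MAP2K1 down), against 63.0% of all genes. The HRAS call there (log2 fold change -0.31, SE 0.12, adjusted P = 0.0255) held in 7 of 12 leave-one-out fits, and was lost without DMSO replicate 2, tretinoin replicate 2 or 3, vemurafenib replicate 1 or combination replicate 3. The median log2 fold change of the 7 genes in this last comparison was 0.12, and that of all genes was 0.02.

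The effects of tretinoin on the cascade genes did not pass the test in edgeR with its low-count filter. With tretinoin against vehicle, 0 of the 7 genes passed in edgeR, 3 had an unadjusted P below 0.05 (HRAS, BRAF and MAP2K2), and DESeq2 called 1 (MAP2K2, log2 fold change -0.22, adjusted P = 0.0296), where 5.68% of all genes passed in edgeR. Between the combination and vemurafenib, 0 passed in edgeR and in DESeq2 and 1 had an unadjusted P below 0.05 (MAPK3), against 4.47% of all genes. Averaged over vemurafenib, tretinoin gave 0 calls in both tools and 3 unadjusted P values below 0.05 (HRAS, MAP2K2 and MAPK3), against 7.60% of all genes. Without tretinoin replicate 1, MAPK3 passed in that comparison (adjusted P = 0.01). For the interaction of the drugs, which asks whether the tretinoin effect differed with vemurafenib present, 0 passed in both tools and 0 had an unadjusted P below 0.05, against 0.806% of all genes. The interaction estimates ran from -0.24 for BRAF (SE 0.13, adjusted P = 0.371) to 0.43 for HRAS (SE 0.23, adjusted P = 0.367).

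**Figure D1:**
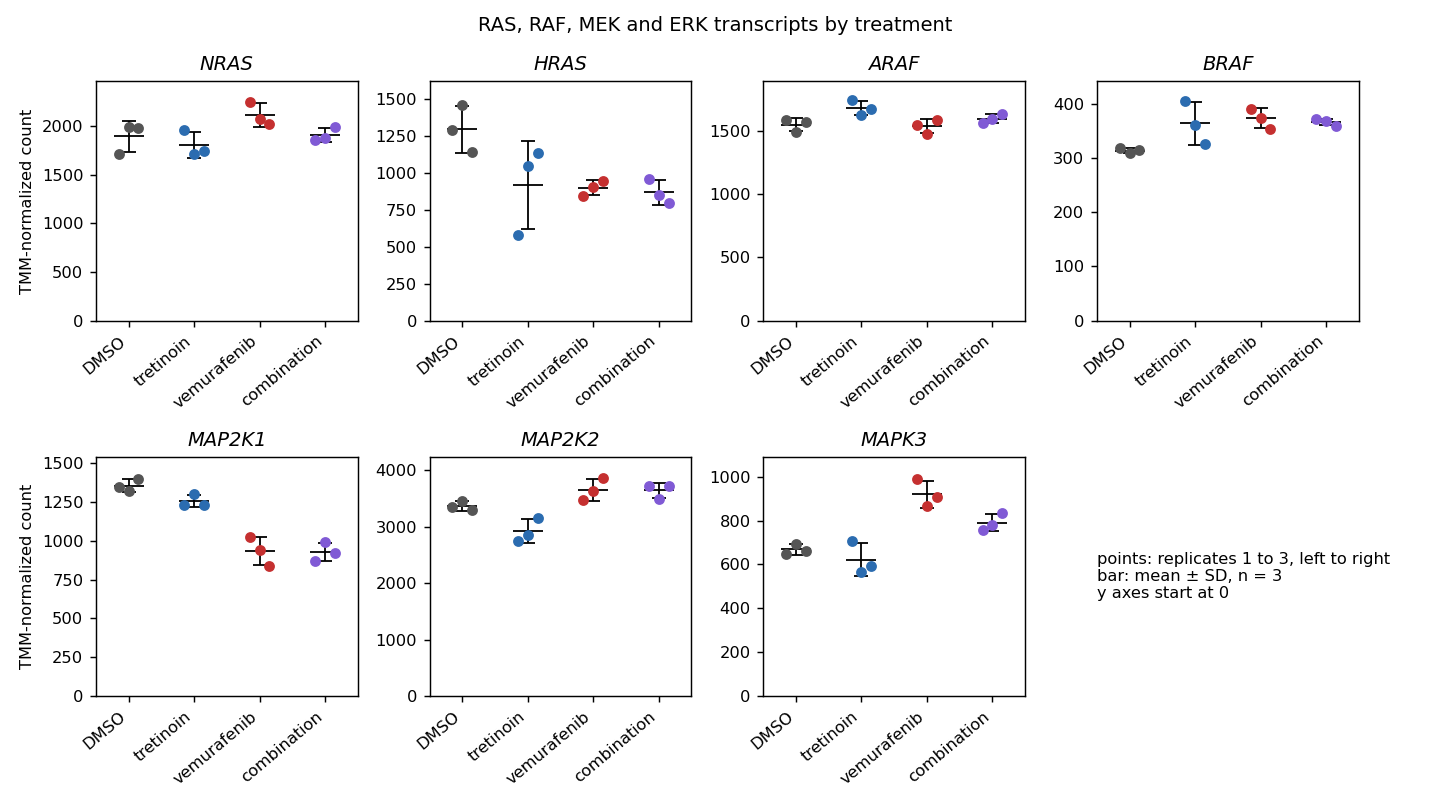
TMM-normalized counts (y axis, from 0) of the 7 cascade genes in the 12 samples, by treatment (x axis), with points for replicates and bars for the mean ± SD of 3. The MAP2K1 points of both vemurafenib-containing groups (839.3 to 1021.1) sit below all points of the other groups, and those of MAPK3 (757.7 to 987.3) sit above them.

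At the RAS tier, HRAS transcripts were lower in both vemurafenib-containing groups than in vehicle, whereas no comparison of NRAS passed in the same fit. HRAS (ENSG00000174775.16) is encoded on the minus strand of chromosome 11 (532242 to 537287, GRCh38). Its TMM-normalized counts were 1292.6, 1459.9 and 1141.4 in DMSO and 581.6, 1048.1 and 1134.3 in tretinoin. They were 846.6, 906.8 and 949.0 in vemurafenib and 960.5, 852.9 and 795.2 in the combination. All 9 drug-treated samples lay below the 3 DMSO samples, and tretinoin replicate 1 lay below all the others. Relative to vehicle control, HRAS fell by 0.53 on the log2 scale with vemurafenib (SE 0.16, edgeR quasi-likelihood test, adjusted P = 0.0111) and by 0.58 with the combination (SE 0.16, adjusted P = 0.0059). The tretinoin difference was -0.48 (SE 0.16, adjusted P = 0.0897), and it passed in edgeR with no low-count filter (-0.49, adjusted P = 1.87e-05). In bulk RNA, fewer cells that express a gene and less of its RNA per cell cannot be told apart.

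The HRAS values depended on single libraries. Without DMSO replicate 2 the vemurafenib change had an adjusted P of 0.0599, and without tretinoin replicate 3 the tretinoin difference had one of 0.0259. Without tretinoin replicate 1 the combination lay below tretinoin (log2 fold change -0.33, adjusted P = 0.00372, against -0.09 and 0.66 with it). HRAS is GC-rich (65.8% of its longest transcript, in the top decile of genes), and in tretinoin replicate 1 it was lower than in the other tretinoin replicates by a log2 difference of -0.90. The same difference had a median of -0.09 over the top decile of genes by GC content and of 0.08 over the bottom decile. The part of GC content in the HRAS values was not tested.

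NRAS (ENSG00000213281.4), on the minus strand of chromosome 1 (114704469 to 114716894), ranged from 1713.0 to 1989.7 normalized counts in DMSO, from 1717.1 to 1964.6 in tretinoin, from 2018.5 to 2252.5 in vemurafenib and from 1855.4 to 1987.2 in the combination. The 3 vemurafenib samples were above the 9 others. The difference from vehicle was 0.16 with vemurafenib (SE 0.08, adjusted P = 0.0932) and 0.01 with the combination (SE 0.08, adjusted P = 0.939). Without tretinoin replicate 1, which enters the shared estimate of the spread, the vemurafenib difference had an adjusted P of 0.0427, and that averaged over tretinoin passed as well (0.15, adjusted P = 0.0102). In edgeR the vemurafenib difference also passed with at least 10 counts in every sample (0.20, adjusted P = 0.0284) and from the compared groups alone (0.17, adjusted P = 0.0337). It did not pass with DESeq2 (adjusted P = 0.133) or, in edgeR, with no low-count filter (adjusted P = 0.348).

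At the RAF tier the differences were small, and those of BRAF, the kinase that vemurafenib inhibits, lay close to the threshold. On chromosome 7, BRAF (ENSG00000157764.12) spans 140719327 to 140924928 on the minus strand. Its normalized counts were 317.9, 308.8 and 313.7 in DMSO, 404.0, 361.3 and 324.6 in tretinoin, 390.4, 373.8 and 354.0 in vemurafenib, and 370.9, 367.7 and 359.1 in the combination. All 9 drug-treated samples lay above the 3 DMSO samples, and the drug-treated groups overlapped one another. BRAF rose by 0.25 with vemurafenib (SE 0.09, adjusted P = 0.0263) and by 0.22 with the combination (SE 0.09, adjusted P = 0.0445). DESeq2 called the vemurafenib difference (0.24, adjusted P = 0.0473) but not that of the combination (0.21, adjusted P = 0.0936). With no low-count filter neither passed in edgeR (adjusted P = 0.155 for vemurafenib and 0.181 for the combination). The study itself reported that BRAF did not differ significantly from vehicle under any of the 3 treatments. Of 12 fits that each left out 1 sample, 8 kept the vemurafenib call and 3 the combination call. The vemurafenib call was lost without DMSO replicate 2 or 3 or vemurafenib replicate 1 or 2 (adjusted P of up to 0.0977). The combination call held only without tretinoin replicate 1, tretinoin replicate 3 or vemurafenib replicate 3, and the other 9 fits gave adjusted P values of up to 0.101. When the other drug was averaged over, the vemurafenib effect on BRAF was 0.13 (SE 0.06, adjusted P = 0.0757). It was 0.17 and passed without tretinoin replicate 1 (adjusted P = 0.022). The cascade genes called in that comparison then went from 4 to 6, while calls over all genes went from 10539 of 16740 to 11125 of 17119.

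BRAF counts carry 2 further limits. Its exons share 1239 bases (5.3%) with NDUFB2 on the opposite strand, and fragments there were counted for neither gene. NDUFB2, a subunit of respiratory complex I, differed by -0.16 with vemurafenib (SE 0.08, adjusted P = 0.0873). BRAF transcripts also hold stretches of 167 to 319 bases that match 33 further annotated genes at 98% identity or more, so some of its fragments may have been assigned elsewhere.

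ARAF (ENSG00000078061.12), on the plus strand of chromosome X (47561100 to 47571920), passed the test in no comparison. It ranged from 1491.6 to 1587.3 normalized counts in DMSO, from 1624.7 to 1739.4 in tretinoin, from 1477.1 to 1584.2 in vemurafenib and from 1565.0 to 1632.1 in the combination. The tretinoin samples lay above the DMSO samples without overlap, by 0.12 on the log2 scale (SE 0.06, adjusted P = 0.278). The vemurafenib difference was -0.01 (SE 0.06, adjusted P = 0.87, 95% interval -0.14 to 0.12), and it turned to 0.18 (adjusted P = 0.0319) when libraries were scaled by total count alone.

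At the MEK tier the 2 paralogs moved in opposite directions with vemurafenib averaged over tretinoin and with the combination against tretinoin. MAP2K1 encodes MEK1 and MAP2K2 encodes MEK2, the dual-specificity kinases that activate ERK. MAP2K1 (ENSG00000169032.9) lies on the plus strand of chromosome 15 (66386817 to 66492312), and MAP2K2 (ENSG00000126934.13) on the minus strand of chromosome 19 (4090321 to 4124129). MAP2K1 had 1346.2, 1317.1 and 1396.0 normalized counts in DMSO and 1230.7, 1300.2 and 1229.3 in tretinoin. It had 1021.1, 938.9 and 839.3 in vemurafenib and 872.0, 988.1 and 917.9 in the combination. The 6 samples with vemurafenib lay below the 6 without it.

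MAP2K1 fell by 0.54 with vemurafenib relative to vehicle control (0.69-fold, SE 0.08, adjusted P = 1.4e-05) and by 0.55 with the combination (0.68-fold, SE 0.08, adjusted P = 1.02e-05). Relative to tretinoin it fell by 0.44 with the combination (SE 0.08, adjusted P = 0.00013). These 3 calls held in each of the 12 leave-one-out fits. Tretinoin itself gave a difference of -0.11 from vehicle (SE 0.08, adjusted P = 0.404). MAP2K1 shares 11.5% of its exon bases with genes on the opposite strand, SNAPC5 (216 bases) and AC116913.1 (432 bases). Averaged over tretinoin, vemurafenib gave 0.15 for SNAPC5 (SE 0.07, adjusted P = 0.0653) and 0.66 for AC116913.1 (SE 0.25, adjusted P = 0.0268), which had 8 to 34 counts per sample.

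MAP2K2 had 3345.7, 3465.4 and 3295.5 normalized counts in DMSO and 2754.2, 2849.2 and 3159.4 in tretinoin. It had 3479.2, 3630.6 and 3870.9 in vemurafenib and 3720.7, 3491.5 and 3733.0 in the combination. The tretinoin samples were the lowest and the vemurafenib-containing samples the highest, with DMSO between them and no overlap. The combination exceeded tretinoin by 0.32 (1.25-fold, SE 0.07, adjusted P = 0.0009). The separate differences from vehicle did not pass the test, at -0.20 with tretinoin (SE 0.07, adjusted P = 0.0915), 0.12 with vemurafenib (SE 0.07, adjusted P = 0.155) and 0.12 with the combination (SE 0.07, adjusted P = 0.169). Without tretinoin replicate 3 the tretinoin difference had an adjusted P of 0.0378. When the other drug was averaged over, vemurafenib raised MAP2K2 by 0.22 (SE 0.05, adjusted P = 0.000758). By GC content, MAP2K2 (60.9%) and MAPK3 (61.4%) lie in decile 9 of genes and MAP2K1 (50.4%) in decile 6. The median log2 fold change in that comparison was 0.09 over decile 9 and 0.01 over decile 6. The part of GC content in the changes of these 3 genes, and in the MAP2K1 to MAP2K2 ratio below, was not tested. MAP2K2 transcripts share 263 bases with AC011005.1, which had at most 30 counts in a sample.

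At the ERK tier, MAPK3, which encodes ERK1, was higher in both vemurafenib-containing groups. The gene (ENSG00000102882.11) lies on the minus strand of chromosome 16 (30114105 to 30123506). It had 648.6, 693.3 and 662.7 normalized counts in DMSO and 707.4, 567.1 and 592.9 in tretinoin. It had 987.3, 865.9 and 906.7 in vemurafenib and 757.7, 779.1 and 832.8 in the combination. The vemurafenib samples were above the combination samples, and both were above the other groups.

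MAPK3 rose by 0.46 with vemurafenib relative to vehicle control (1.38-fold, SE 0.09, adjusted P = 0.000202) and by 0.24 with the combination (1.18-fold, SE 0.09, adjusted P = 0.0232). It was 0.35 higher in the combination than in tretinoin (SE 0.09, adjusted P = 0.00258). The combination differed from vemurafenib by -0.22 (SE 0.08, adjusted P = 0.194, 95% interval -0.39 to -0.04 before adjustment). The call for the combination against vehicle was lost without DMSO replicate 1, DMSO replicate 3 or combination replicate 3, with adjusted P values of up to 0.101, while the calls for vemurafenib against vehicle and for the combination against tretinoin held in all 12.

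**Figure D2:**
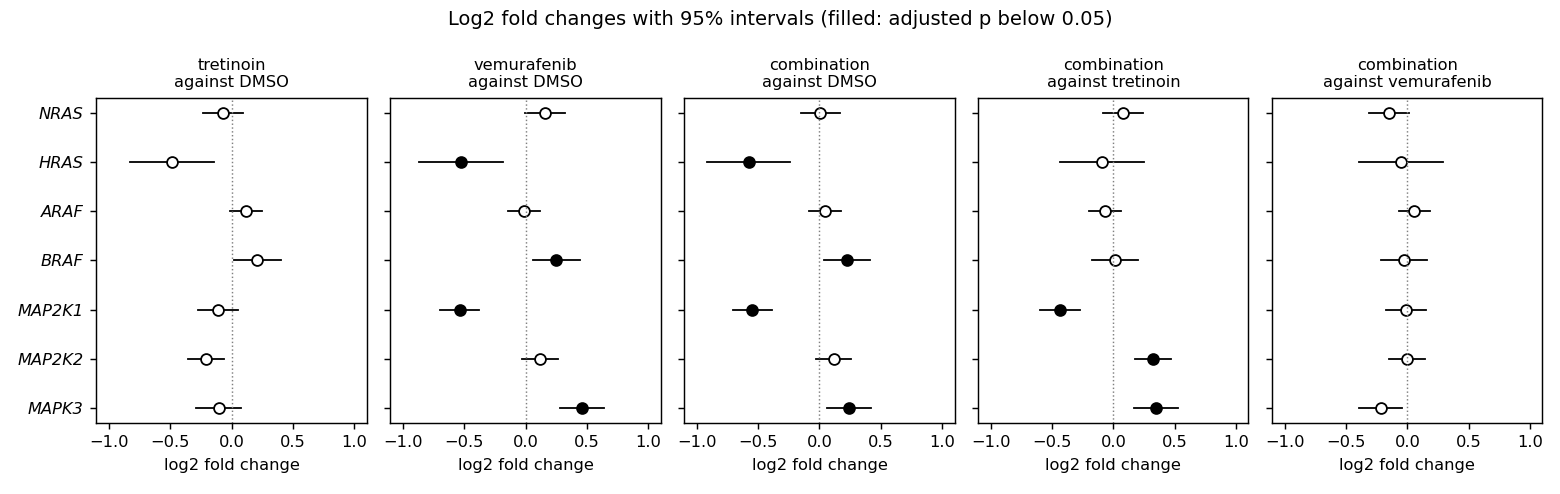
Log2 fold changes (x axis) of the 7 cascade genes (y axis) in 5 comparisons, with 95% intervals before adjustment and filled points where the adjusted P was below 0.05. MAP2K1 lies left of 0 and MAPK3 right of 0 in the 3 panels that compare samples with and without vemurafenib, and no point is filled for tretinoin against DMSO or for the combination against vemurafenib.

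The stretches upstream of the 3 genes with calls for vemurafenib averaged over tretinoin in all 12 leave-one-out fits are shown, since those genes moved with the same drug in opposite directions. They are the parts of RefSeq's 250-base promoter windows (GRCh38.p14) that hold no annotated exon, written 5′ to 3′ on the gene's strand, with GC boxes (GGGCGG, either strand, overlapping matches counted) in capitals. The lines give MAP2K1 at chr15:66386747-66386816 (plus strand), MAP2K2 at chr19:4124130-4124372 (minus strand) and MAPK3 at chr16:30123310-30123470 (minus strand). The MAPK3 stretch lies inside the annotated span of its gene, the other 2 lie directly before theirs, and the MAP2K1 stretch holds no GC box.
MAP2K1: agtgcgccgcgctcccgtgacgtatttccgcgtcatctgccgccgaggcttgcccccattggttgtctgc
MAP2K2: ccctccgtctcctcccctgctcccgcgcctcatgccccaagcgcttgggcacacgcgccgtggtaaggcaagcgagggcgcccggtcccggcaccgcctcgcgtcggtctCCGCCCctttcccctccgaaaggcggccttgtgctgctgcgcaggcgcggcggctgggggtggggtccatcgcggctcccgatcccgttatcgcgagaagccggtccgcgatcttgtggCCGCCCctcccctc
MAPK3: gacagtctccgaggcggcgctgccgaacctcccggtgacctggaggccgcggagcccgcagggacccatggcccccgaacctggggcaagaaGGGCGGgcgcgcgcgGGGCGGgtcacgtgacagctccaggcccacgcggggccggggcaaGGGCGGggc

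Over the full windows, GC boxes numbered 3 for MAP2K1, 2 for MAP2K2 and 6 for MAPK3, and at least 1 was present in 42.6% of 35116 promoter windows of the same length. NRAS had 2, HRAS 3, and ARAF and BRAF 0. The HRAS, BRAF and MAPK3 windows lie wholly inside the annotated spans of their genes. Their counts therefore do not describe the sequence before the outermost annotated starts. The core of ETS factor sites (CCGGAA, either strand) was present once each in the HRAS and ARAF windows and not in the other 5, against 14.5% of all windows. These matches describe the letters of the windows only.

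The MAP2K1 stretch is also the gap between MAP2K1 and TIPIN, which starts on the opposite strand 71 bases upstream of the MAP2K1 start. TIPIN, a protein of the replication fork, fell by 1.09 with vemurafenib averaged over tretinoin (SE 0.07, adjusted P = 7.46e-10), with mean normalized counts of 733.3 in DMSO, 684.7 in tretinoin, 343.7 in vemurafenib and 325.0 in the combination. Both genes of this head-to-head pair were thus lower with vemurafenib. The HRAS neighbour LRRC56 starts on the opposite strand, 240 bases upstream of the outermost annotated HRAS start. The HRAS promoter window counted above lies downstream of that start, inside the gene. LRRC56 rose by 0.55 (SE 0.11, adjusted P = 0.000398), whereas HRAS was lower. The mean normalized counts of LRRC56 were 73.2 in DMSO, 79.7 in tretinoin, 110.8 in vemurafenib and 112.6 in the combination. TIPIN and LRRC56 were the protein-coding genes found to start on the opposite strand within 1000 bases upstream of the outermost annotated start of a cascade gene.

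Scaling by total count alone moved the median log2 fold change of all genes with vemurafenib against vehicle from 0.02 to 0.21, and the genes called there from 4411 up and 4400 down to 6575 up and 2628 down. Under that scaling MAP2K1 was at -0.34 (adjusted P = 0.00166), MAPK3 at 0.66 (adjusted P = 1.36e-05) and MAP2K2 at 0.31 (adjusted P = 0.000504). NRAS (0.35, adjusted P = 0.00108) and ARAF then also passed, HRAS at -0.33 no longer did (adjusted P = 0.0794), and the cascade genes called went from 4 to 6. They also went from 4 to 6 with the combination against vehicle, where ARAF (0.20, adjusted P = 0.0159) and MAP2K2 (0.28, adjusted P = 0.00138) were added. For vemurafenib averaged over tretinoin the median moved to 0.16, and the genes called from 5406 up and 5133 down to 7273 up and 3582 down.

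Ratios of paralogs within a sample do not depend on the scaling between libraries. The log2 ratio of MAP2K1 to MAP2K2 counts per kilobase was -0.84, -0.92 and -0.76 in DMSO and -0.68, -0.65 and -0.88 in tretinoin. It was -1.29, -1.47 and -1.73 in vemurafenib and -1.62, -1.34 and -1.55 in the combination. There were thus 0.559 MAP2K1 fragments per MAP2K2 fragment by length in DMSO and 0.599 in tretinoin, against 0.354 in vemurafenib and 0.353 in the combination. The level of such a ratio depends on the annotated exon lengths used, which cancel in differences between groups. The samples with and without vemurafenib did not overlap. Vemurafenib shifted the log2 ratio by -0.71 (two-sided exact permutation test within tretinoin strata, P = 0.005, the smallest that 400 permutations allow, and 0.03 after adjustment over 6 tests). The tretinoin difference in the same ratio was 0.05 (exact permutation test, P = 0.575, adjusted P = 0.69).

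The other 2 paralog pairs differed with vemurafenib by amounts that did not pass after adjustment. The log2 ratio of ARAF to BRAF averaged 4.99 without vemurafenib and 4.81 with it, a difference of -0.17 (exact permutation test, P = 0.025, adjusted P = 0.075). Since it divides by the long BRAF exon span, only its differences between groups can be read. The log2 ratio of HRAS to NRAS averaged 0.47 without vemurafenib and 0.08 with it, a difference of -0.39 (exact permutation test, P = 0.11, adjusted P = 0.22). Its tretinoin replicates were -0.49, 0.55 and 0.65. Without tretinoin replicate 1 the vemurafenib shift was -0.58 for HRAS to NRAS (exact permutation test, adjusted P = 0.015) and -0.20 for ARAF to BRAF (adjusted P = 0.03). The tretinoin differences were -0.19 for HRAS to NRAS (exact permutation test, adjusted P = 0.69) and 0.00 for ARAF to BRAF (adjusted P = 0.93).

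**Figure D3:**
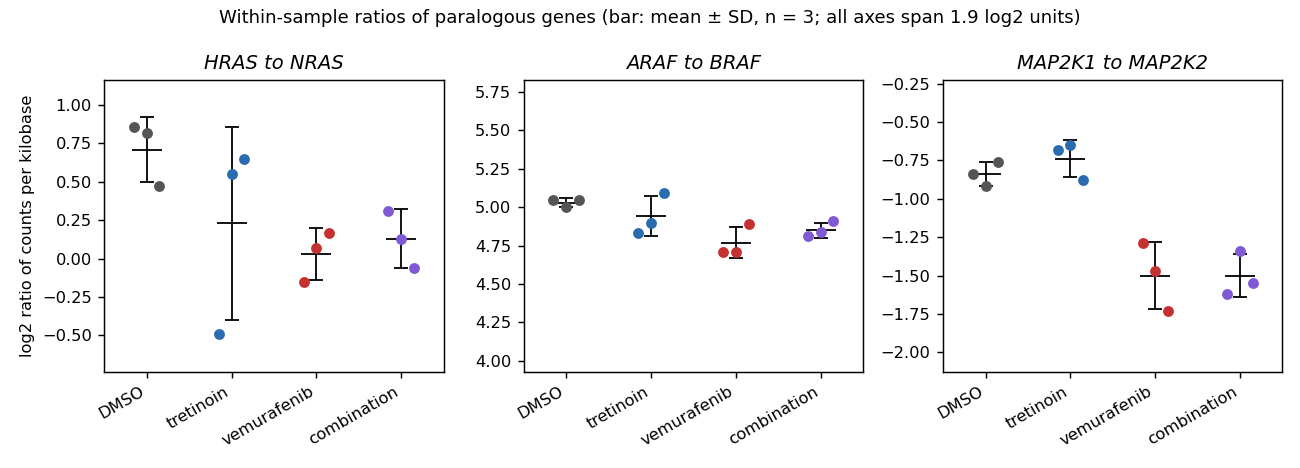
Log2 ratios of counts per kilobase within each sample (y axis, each panel spanning the same number of log2 units) for 3 paralog pairs by treatment (x axis), with points for replicates and bars for the mean ± SD of 3. The MAP2K1 to MAP2K2 ratio lies between -1.73 and -1.29 in all samples with vemurafenib and between -0.92 and -0.65 in those without it.

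Genes that surround the cascade were grouped by role and are given for vemurafenib averaged over tretinoin, in which 32.3% of all genes rose and 30.7% fell. Among adaptors and exchange factors that load RAS with GTP, 6 of 9 tested genes rose and 3 fell, with a median log2 fold change of 0.62. The exchange factors SOS1 (0.74, SE 0.07, adjusted P = 1.22e-07) and RASGRP1 (1.99, SE 0.21, adjusted P = 2.06e-07) and the docking protein GAB1 (1.05, SE 0.13, adjusted P = 1.86e-06) rose, and the phosphatase PTPN11 fell (-0.39, SE 0.05, adjusted P = 1.61e-06). RASGRP1 was scarce, with means of 8.0 normalized counts in DMSO and 38.0 in vemurafenib. Among the GTPase-activating proteins that return RAS to its inactive state, 4 of 8 fell and 1 rose (median -0.11). RASA3 fell by 1.06 (SE 0.06, adjusted P = 2e-11) and RASA2 by 0.62 (SE 0.08, adjusted P = 4.77e-06), while RASAL1 rose by 0.86 (SE 0.12, adjusted P = 9.09e-06).

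Of 8 genes for lipid modification and turnover of RAS, 4 fell and 1 rose (median -0.15). ICMT, which methylates the RAS carboxyl end, fell by 0.52 (SE 0.05, adjusted P = 1.67e-07), and the protease RCE1 of the preceding step fell by 0.32 (SE 0.06, adjusted P = 0.000166). PDE6D, a carrier of prenylated RAS, rose by 0.30 (SE 0.07, adjusted P = 0.00138). Of 13 scaffolds and RAF regulators, 4 rose and 5 fell (median 0.04). PAQR3, which tethers RAF at the Golgi, fell by 0.53 (SE 0.07, adjusted P = 2.04e-06), and the 14-3-3 gene YWHAB by 0.23 (SE 0.05, adjusted P = 0.000689).

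Downstream of the cascade, 3 of 8 kinases and factors that ERK phosphorylates rose and 5 fell (median -0.26). The ribosomal S6 kinase genes parted, with RPS6KA3 lower by a log2 fold change of -0.87 (SE 0.06, adjusted P = 1.54e-09) and RPS6KA2 higher by 0.86 (SE 0.09, adjusted P = 1.11e-07). All 10 ERK output genes fell, with a median of -3.4. DUSP6, an ERK phosphatase, fell from a mean of 2199.0 normalized counts in DMSO to 33.0 in vemurafenib and 33.0 in the combination, and SPRY4, a feedback inhibitor of the cascade, from 1656.0 to 18.0 and 21.0. The output genes ran from -6.42 to -1.20, and the cascade genes from -0.49 for MAP2K1 to 0.41 for MAPK3. Among the 12 tested kinases of the parallel p38, JNK and ERK5 routes, 3 rose and 4 fell (median -0.09). MAP2K3, which activates p38, fell by 1.38 (SE 0.05, adjusted P = 4.47e-13), and MAP2K5, which activates ERK5, rose by 0.46 (SE 0.06, adjusted P = 1.35e-06).

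**Figure D4:**
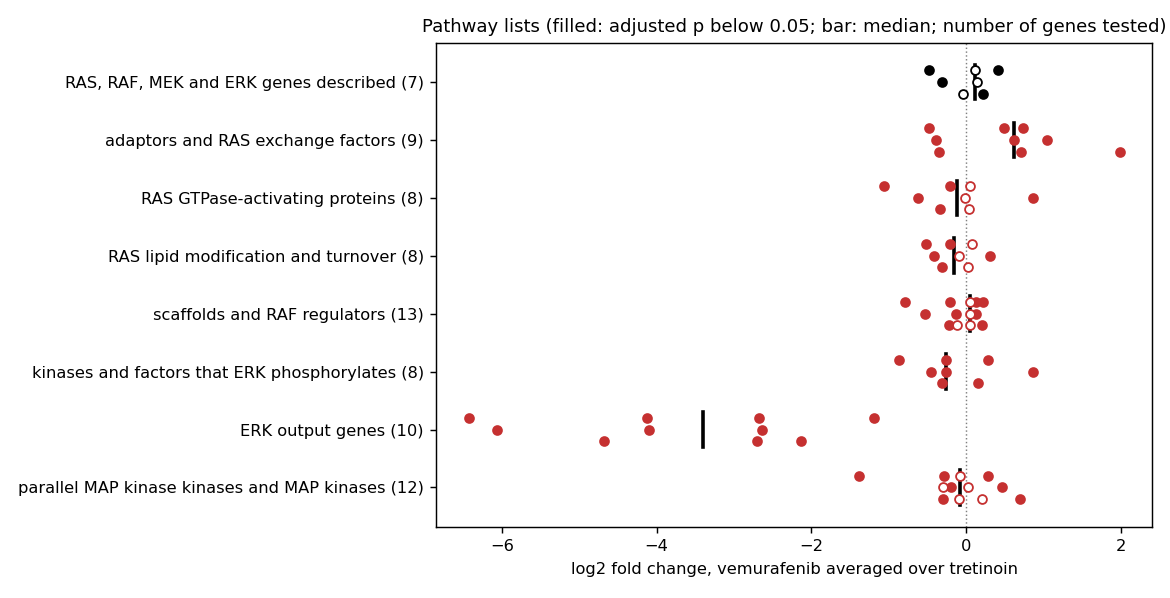
Log2 fold changes for vemurafenib averaged over tretinoin (x axis), with 1 point per gene, grouped by role (y axis, number of genes tested in brackets), filled where the adjusted P was below 0.05, and a bar at each median. The ERK output genes lie from -6.42 to -1.20, and the 7 cascade genes from -0.49 to 0.41.

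With tretinoin averaged over vemurafenib, 4.29% of all tested genes rose and 3.31% fell. In that comparison 2 of 10 ERK output genes rose and 1 fell, and 2 of 8 kinases or factors that ERK phosphorylates rose. Of 9 adaptors and of 8 GTPase-activating proteins, 1 gene each rose and 1 fell. RASGRP1 rose by 0.82 (SE 0.22, adjusted P = 0.0267).

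The genes whose levels followed each cascade gene most closely were sought among 10360 protein-coding genes with a mean count of at least 100. The Pearson correlations of log2 CPM over the 12 samples share the libraries and the 4 treatments and are given as descriptions. They were highest for MAP2K1 with DBF4 (0.990) and KDM2B (0.988), for HRAS with MRPS5 (0.989) and SUB1 (0.983), for MAP2K2 with MYH14 (0.967) and OAZ2 (0.955), and for MAPK3 with SHKBP1 (0.967) and CDKN1A (0.957). BRAF was followed most closely by LNPEP (0.943) and PGAP1 (0.934), NRAS by CREBL2 (0.927) and RHOQ (0.908), and ARAF by MRRF (0.916) and ERP44 (0.883). Among the cascade genes themselves, NRAS and MAPK3 had the highest coefficient (0.84) and HRAS and BRAF the lowest (-0.89). Tretinoin replicate 1 held both the lowest HRAS value (581.6 normalized counts) and the highest BRAF value (404.0). The part of that sample in the coefficients of HRAS was not tested. MAP2K1 and MAP2K2 had a coefficient of -0.72.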

How the data were processed

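RNA from 12 samples of A375 cells was analysed as 4 groups of 3, taken from the sample labels. The authors deposited raw fragment counts per gene, without normalization. Per the study's methods they prepared poly(A)-selected, directional libraries, aligned paired reads to GRCh38.p10 with STAR 2.5.3a and counted GENCODE 27 exons in union mode with the strand ignored, so fragments over exons of genes on opposite strands were counted for neither. Symbols, exon lengths and positions came from GENCODE 29 (58081 of 58347 genes matched).

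The counts were filtered with filterByExpr, scaled by TMM and tested with edgeR 4.0.16 (R 4.3.3) by the quasi-likelihood method with a term per group and no block on all 12 samples (common dispersion 0.00653). Benjamini-Hochberg adjustment ran over the 16740 genes of each comparison, with a threshold of 0.05. An averaged effect is the mean of a drug's effect with and without the other drug. RPKM values were computed from TMM-scaled counts and exon length. Paralog ratios were compared by exact permutation in Python 3.11.15 with numpy 2.4.6. Intervals cover the fitted spread, and the code was tested on simulated data.

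Alternatives were DESeq2 1.42.0, its size factors, total-count scaling, other count filters, a replicate block, the compared groups alone, a threshold of 0.1 and leaving out each sample. Named genes were the cascade genes, the 2 most correlated genes of each and up to 4 genes per list with the smallest P for vemurafenib; overlapping and neighbouring genes were added by position after the data had been seen. The genes and lists were chosen with earlier results of these data known. A list of other genes of the same families is not reported here. Replicate pairs differed by more than counting noise (chi-square per degree of freedom 2.56 to 21.8).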

Additional observations from a re-analysis of the deposited data

How the results depend on the processing

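MAP2K1 and MAPK3 kept their direction in every alternative run for vemurafenib against DMSO, the combination against tretinoin and vemurafenib averaged over tretinoin. Other counts of called cascade genes moved. For tretinoin against DMSO, 0 calls became 1 with DESeq2 (MAP2K2), 1 with no low-count filter (HRAS) and 2 at a threshold of 0.1. Fits without 1 sample gave 0 to 2. For tretinoin averaged over vemurafenib, 0 became 1 with no low-count filter (HRAS), and fits without 1 sample gave 0 to 1. Over all genes the calls there were 1272, and 1364 with no low-count filter and 941 to 1622 without 1 sample. The interaction went from 0 to 1 with no low-count filter (HRAS). For the combination against DMSO, 4 became 3 with DESeq2 and 2 with no low-count filter, and fits without 1 sample gave 2 to 4. Over all genes the calls there were 8977 of 16740, and 8417 of 19922 with DESeq2 and 8713 of 41806 with no low-count filter. They ranged from 7927 to 9951 in fits without 1 sample. For vemurafenib against DMSO, fits without 1 sample gave 2 to 5, the lowest without DMSO replicate 2, and 7714 to 9813 over all genes. For vemurafenib averaged over tretinoin they gave 3 to 6, the highest without tretinoin replicate 1, and 10071 to 11125 over all genes. Under total-count scaling, 4 became 6 for vemurafenib against DMSO and for the combination against DMSO. ARAF with vemurafenib reversed from -0.01 to 0.18 under total-count scaling. HRAS with vemurafenib averaged over tretinoin had an adjusted P of 0.203 under total-count scaling and 0.0579 with at least 10 counts in every sample. Without 1 sample, the vemurafenib shift ranged from -0.576 to -0.291 for HRAS to NRAS and from -0.204 to -0.137 for ARAF to BRAF. The cause of these moves was not tested. Over all genes, interaction calls were 135 in the reported fit, 254 with DESeq2, 610 with no low-count filter, 75 with the replicate block and 60 (without DMSO replicate 2) to 265 (without tretinoin replicate 1) in fits without 1 sample. Calls for tretinoin against DMSO were 951, and 1242 with DESeq2, 1540 with no low-count filter and 305 from the compared groups alone. Fits without 1 sample gave 379 (without DMSO replicate 2) to 1367 (without tretinoin replicate 3). Calls for the combination against vemurafenib were 749, and 1269 from the compared groups alone and 460 to 1172 without 1 sample. Total-count scaling also moved the genes up and down from 4537 and 4440 to 6242 and 2916 for the combination against DMSO, from 4026 and 4191 to 5051 and 3271 against tretinoin, from 583 and 368 to 758 and 174 for tretinoin against DMSO, and from 64 and 71 to 36 and 132 for the interaction. Same-numbered samples of different groups did not deviate together on average (mean correlation -0.03 over 18 pairs, and 0.02 in the 36 pairs whose numbers differed). A mean over all genes cannot decide whether they shared a culture or a preparation, and the labels do not say. With the replicate block, 4 cascade genes were called for vemurafenib against DMSO and 3 for the combination against DMSO (BRAF adjusted P = 0.0507), no other call of a cascade gene changed, and the MAP2K1 to MAP2K2 shift of -0.71 had an adjusted P of 0.0938 by exact permutation. The block leaves 64 arrangements and a smallest P of 0.0312, which this shift reached, so that value says nothing about stability. Depth limits BRAF most, with 253 to 439 fragments per sample.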
